A study of Mus musculus with 3 samples.

Results

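The genes of glycolysis were followed across mouse acute myeloid leukaemia cells that were left untreated or given either of 2 treatments: 33 genes for the glucose and lactate transporters, the enzymes of each step with their isozymes, and the kinases that set the pace of the pathway. They were chosen by name, as the probes of the array design that carry one of the 33 gene names and are not controls. All 33 were found, on 53 probes (62 spots), among 34770 names on the design. HoxA9-Meis1 AML cells are cells of C57Bl/6 bone marrow origin, named for Hoxa9 and Meis1, which are homeobox transcription factors, and kept in SFEM medium. The 3 groups were untreated cells, cells with 3.4 µM of a compound called Pyrydopyrazine A2, and cells with all-trans retinoic acid (RA) together with 1α-hydroxy vitamin D3 (D3V), 10 µM of each, all sampled at 24 h. Each group was 1 sample on 1 single-colour Agilent array, so no difference below has a replicate check, no test across samples was possible, and every value describes these arrays alone. Every group carries the same leukaemic background, and no normal cells are among the arrays.

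Glycolysis converts glucose to pyruvate in the cytosol and yields ATP without oxygen. Cells that run it fast take up glucose through facilitative transporters, turn pyruvate into lactate and export the lactate with protons. The main control points are hexokinase, phosphofructokinase and pyruvate kinase, and several steps are served by isozymes with different tissue distribution and regulation. Many of these genes are induced by hypoxia-inducible factor 1 and by Myc, and proliferating leukaemia cells as well as activated neutrophils and macrophages depend on the pathway.

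The treated arrays carry labels that differ between the sources. In the authors' deposited value table, the column labelled RA plus D3V ranks all 62976 spots as the scanner file labelled A2 does (Spearman 1), and the column labelled A2 ranks them as the scanner file labelled RA plus D3V does (Spearman 1). Names of arrays here follow the scanner files, and a direction belongs to an array under that label and may not be that of the compound. No scanner file matched the control column of that table (Spearman 0.936 with the untreated one), which gives a second set of untreated values of unknown origin. Each array showed 46.0% to 46.8% of its 59305 spots other than controls well above background and 0 saturated ones. Hoxa9 and 10 others of 12 myeloid and leukaemia markers were above background on all 3 arrays, whereas Meis1 was not above background on any of them.

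Glycolysis genes were mostly higher on both treated arrays than on the untreated array. On the A2-labelled array, 12 of 29 measured genes were at least 2-fold higher and 0 were at least 2-fold lower, against 7.92% and 6.46% of all 17280 names measured there. On the RA+D3V-labelled array, 10 of 28 were at least 2-fold higher and 1 at least 2-fold lower, against 7.81% and 5.04% of 17281 names. A gene counts as measured when both arrays compared showed its brightest probe well above background. The median log2 difference of the genes was 0.88 on the A2-labelled array and 0.89 on the RA+D3V-labelled array, where the medians of all names were -0.03 and -0.03. 26 of 29 and 25 of 28 lay above their untreated level, against 47.7% and 48.2% of all names. Both comparisons share the untreated array, so its error enters both.

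The spread available to judge these values is technical or of unknown origin. Pfkm, the muscle-type phosphofructokinase, is printed in 10 spots on each array, and its log2 signal had an SD of 0.07 on the untreated array, 0.06 on the RA+D3V-labelled and 0.04 on the A2-labelled one. Between the second control values and the untreated array the log2 difference had an SD of 0.15 over the 28 glycolysis genes above background on all 3 arrays, with a range from -0.22 to 0.38, and 0 of the 28 lay 2-fold apart. Over all 17005 genes of that kind the SD was 0.28 and 0.935% lay 2-fold apart. With the second control in place of the untreated array, all 12 genes called on the A2-labelled array were still at least 2-fold higher, and 7 of the 10 on the RA+D3V-labelled array. The 3 that were not are Tpi1, Eno3 and Aldoa, at log2 differences of 0.99, 0.93 and 0.85 from the second control.

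**Figure D1:**
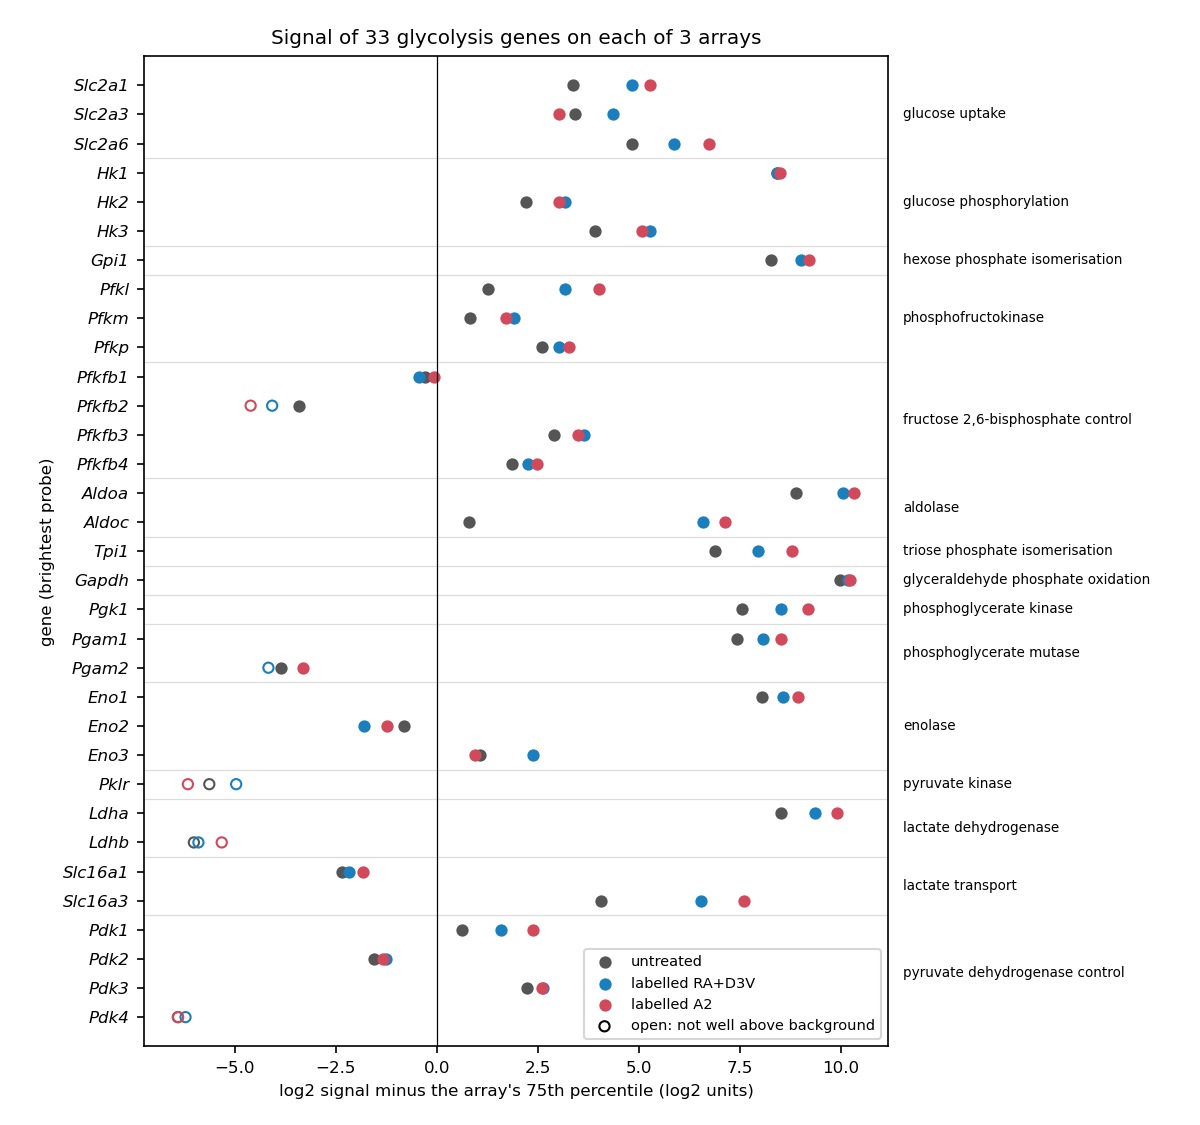
Log2 signal of each of the 33 genes (rows, ordered by step) on the untreated array (grey), the RA+D3V-labelled array (blue) and the A2-labelled array (red), each with 1 array and relative to the array's 75th percentile of spots. Filled points are well above background and open points are not; signals of different genes come from different probes and are not to be compared. Aldoc and Slc16a3 have the widest gaps between the untreated and treated points.

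The promoters of some of these genes hold the short core of the binding site of hypoxia-inducible factors, ACGTG or GCGTG, and 4 are shown because their genes lay past 2-fold on the A2-labelled array yet differ in that core. The sequences are the 250 bases before a RefSeq transcription start on the strand of the gene (RefSeq, build GRCm38.p6), with every ACGTG or GCGTG on either strand in capitals. The capitals include the E-box CACGTG, the site of Myc and related factors, which contains ACGTG on both strands.
Slc16a3, chr11:120948817-120949066, + strand: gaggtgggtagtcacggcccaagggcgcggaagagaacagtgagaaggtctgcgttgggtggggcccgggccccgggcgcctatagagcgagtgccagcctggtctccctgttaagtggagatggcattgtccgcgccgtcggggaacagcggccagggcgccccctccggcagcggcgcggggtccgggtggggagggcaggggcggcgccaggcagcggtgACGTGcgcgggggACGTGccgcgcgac
Pgk1, chrX:106186850-106187099, + strand: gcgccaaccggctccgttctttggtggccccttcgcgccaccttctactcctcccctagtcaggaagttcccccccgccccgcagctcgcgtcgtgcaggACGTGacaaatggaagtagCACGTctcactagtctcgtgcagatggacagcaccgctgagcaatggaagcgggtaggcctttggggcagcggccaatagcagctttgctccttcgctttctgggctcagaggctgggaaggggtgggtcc
Ldha, chr7:46845554-46845803, + strand: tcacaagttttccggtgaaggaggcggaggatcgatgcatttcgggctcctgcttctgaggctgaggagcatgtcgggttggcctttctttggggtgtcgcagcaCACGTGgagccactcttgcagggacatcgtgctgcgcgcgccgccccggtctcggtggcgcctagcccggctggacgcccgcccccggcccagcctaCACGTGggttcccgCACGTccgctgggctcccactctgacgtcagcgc
Tpi1, chr6:124814159-124814408, - strand: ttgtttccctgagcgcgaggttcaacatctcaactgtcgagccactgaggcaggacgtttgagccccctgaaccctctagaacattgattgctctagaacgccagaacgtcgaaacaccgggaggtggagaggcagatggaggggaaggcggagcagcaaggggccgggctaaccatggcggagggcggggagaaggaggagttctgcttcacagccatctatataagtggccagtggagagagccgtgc
Slc16a3 and Pgk1 each hold ACGTG at 2 places, and the Tpi1 window holds neither core. The Ldha window shown holds ACGTG at 5 positions counting both strands of its 2 E-boxes. Ldha has another window, not shown (chr7:46846832-46847081), with GCGTG at 1 place and no ACGTG. Promoters were in the table for 32 of the 33 genes. ACGTG was present for 14 of the 32 (43.8%) and GCGTG for 21 (65.6%), against 18.5% and 30.9% of the 27025 genes in the table. A gene was counted if any of its windows held the core, and the 32 genes had 51 windows. By window the shares were 35.3% and 51.0%, against 16.6% and 28.2% of all windows. The windows of glycolysis genes were also richer in G and C, with a median of 58.4% against 52.4% over all 32851 windows. Both cores contain the pair CG, of which these windows held a median of 11 against 6 over all windows. Neither base composition nor the number of CG pairs was matched. Either core was present for 13 of the 14 genes with a window that lay at least 2-fold above untreated on a treated array, and for 11 of the 13 other measured genes. Over all genes in the table the share with either core was 41.5%. A match is a description of these letters and shows no binding.

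Glucose uptake genes were among the higher ones, with 1 exception. Slc2a1, which encodes the widely expressed transporter GLUT1, had a log2 signal of 3.38 on the untreated array, 4.82 on the RA+D3V-labelled array and 5.29 on the A2-labelled array, where 0 is the signal of the spot at the array's 75th percentile. It was thus 2.73-fold and 3.76-fold above its untreated level. Slc2a6, the transporter GLUT6 of leukocytes and spleen, followed the same order with 4.83, 5.88 and 6.74, a 2.07-fold and a 3.77-fold difference, and its second probe gave 1.01 and 2.05 on the log2 scale. Slc2a3, the high-affinity transporter GLUT3, had 3.43 on the untreated array, 4.37 on the RA+D3V-labelled array and 3.01 on the A2-labelled array. It was 1.92-fold above its untreated level on the former and lay below it on the latter by 0.41 on the log2 scale.

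The hexokinases, which trap glucose as glucose 6-phosphate, differed by isozyme. Hk3, the isozyme typical of myeloid cells, had a signal of 3.92 untreated, 5.28 on the RA+D3V-labelled array and 5.09 on the A2-labelled array, which is 2.56-fold and 2.26-fold higher. Hk2, the inducible isozyme, had 2.20, 3.16 and 3.03, short of 2-fold at 1.95-fold and 1.78-fold. Hk1, the housekeeping isozyme, was read by 3 probes that did not give the same answer. Its brightest probe (chromosome 10, 61731230 to 61731288, mm9) had 8.43, 8.43 and 8.49, a log2 difference of -0.004 and 0.06. The other Hk1 probes gave 0.67 and 0.60 on the RA+D3V-labelled array and 0.96 and 1.13 on the A2-labelled array. Gpi1, the isomerase of glucose 6-phosphate, lay below 2-fold on its brightest probe, with 8.28, 9.01 and 9.21, and its 3 probes overlap on the genome and gave 0.93 to 1.20 on the A2-labelled array.

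Phosphofructokinase commits the sugar to glycolysis, and its liver-type subunit gene stood out. Pfkl (probe at chromosome 10, 77450926 to 77450985, mm9) had a log2 signal of 1.27 untreated, 3.17 on the RA+D3V-labelled array and 4.02 on the A2-labelled array. The treated signals were 3.71-fold and 6.69-fold higher. Pfkm had 0.83, 1.90 and 1.70 as means of its 10 spots, and the lowest treated spot, at 1.64, lay above the highest untreated one, at 0.95, so the gap of 1.07 and 0.88 exceeds the spread between spots of these arrays. The platelet-type Pfkp lay within 2-fold, with 2.60, 3.03 and 3.28.

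The bifunctional enzymes that make and break down fructose 2,6-bisphosphate, the strongest activator of phosphofructokinase, lay closer to their untreated level. None of the 3 measured genes was 2-fold apart from its untreated level on either array. Pfkfb3, the isozyme with the highest kinase activity, had 2.91 untreated, 3.63 on the RA+D3V-labelled array and 3.49 on the A2-labelled array. Its second probe, a dimmer one placed over an interrupted stretch (chromosome 2, 11404189 to 11405602, mm9), gave a log2 difference of 1.27 on the RA+D3V-labelled array and 0.23 on the A2-labelled array. Pfkfb4 had 1.86, 2.25 and 2.49, and Pfkfb1 had -0.29, -0.45 and -0.08. Pfkfb2 was well above background on the untreated array only (-3.41). Against a floor on each treated array, it was 1.59-fold lower on the RA+D3V-labelled array and 2.14-fold lower on the A2-labelled array. The floor takes the larger of the probe's own signal and the lowest signal of any probe above background on the treated array. These folds are not lower bounds, because some probes not well above background lay above the floor. Examples are Col1a1 at -3.93 on the RA+D3V-labelled array and Gapdhs at -4.15 on the A2-labelled array. The second control value of Pfkfb2 lay 0.59 below the untreated array on the log2 scale.

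Aldolase C had the largest difference of the measured genes on both treated arrays. Aldoc (probe at chromosome 11, 78140198 to 78140257, mm9), the isozyme best known from brain, had a log2 signal of 0.80 untreated, 6.59 on the RA+D3V-labelled array and 7.14 on the A2-labelled array. It was 55.4-fold and 81.2-fold above its untreated level, and 5.59 and 6.15 on the log2 scale above the second control. Aldoa, the main aldolase of most tissues, had 8.88, 10.06 and 10.34, a 2.26-fold and a 2.74-fold difference. Both treated signals of Aldoa lie close to the brightest spot other than controls on their arrays, at 10.68 and 10.51. Against the second control, which was 0.33 above the untreated array for Aldoa, the difference on the RA+D3V-labelled array was 0.85 and thus under 2-fold.

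After the aldolase step, Tpi1 passed 2-fold on both treated arrays, and Pgk1 and Pgam1 on the A2-labelled array alone. Tpi1, which interconverts the triose phosphates, had 6.89 untreated, 7.96 on the RA+D3V-labelled array and 8.80 on the A2-labelled array, a 2.10-fold and a 3.75-fold difference. Pgk1, the first ATP-forming enzyme, had 7.55, 8.52 and 9.19, which is 1.96-fold and 3.13-fold. Its brightest probe carries a Pgk1 transcript accession but is placed on chromosome 3 (57906830 to 57906894, mm9). Whether it also reads a copy of the gene was not tested. The probe on the X chromosome gave 1.04 and 1.72 on the log2 scale. Pgam1, the main phosphoglycerate mutase, had 7.43, 8.09 and 8.53 and was 2.15-fold higher on the A2-labelled array. Pgam2, the muscle mutase, was dim at -3.87 untreated and -3.32 on the A2-labelled array, and was not well above background on the RA+D3V-labelled array (-4.17). Its second control value lay 2.59 below the untreated array on the log2 scale, more than any of its differences between arrays.

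Gapdh, often taken as a reference gene, was higher on all 7 of its probes on both treated arrays, and least so on the brightest. The brightest probe had 9.99 untreated, 10.17 on the RA+D3V-labelled array and 10.23 on the A2-labelled array, a difference of 0.18 and 0.25. The brightest spot other than controls on the untreated array lay at 10.49. The other 6 probes gave 0.41 to 0.57 on the RA+D3V-labelled array and 0.54 to 1.17 on the A2-labelled array, and 3 of the 7 passed 2-fold on the latter. The probe that is placed on chromosome 8 (94212520 to 94212579, mm9), while the others lie on chromosome 6, gave 0.41 and 0.87.

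The enolases lay on both sides of their untreated level. Eno1, the enolase of most cells, had 8.06 untreated, 8.58 on the RA+D3V-labelled array and 8.94 on the A2-labelled array, under 2-fold on both. Eno3, the muscle isozyme, had 1.06, 2.37 and 0.96, so that it was 2.48-fold higher on the RA+D3V-labelled array and near its untreated level on the A2-labelled array. Eno2, the neuronal isozyme, was below its untreated level on both arrays, with -0.80, -1.80 and -1.22. It was the 1 gene counted as at least 2-fold lower on the RA+D3V-labelled array, at a log2 difference of -1.002 that lies at the limit.

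Pklr, the pyruvate kinase of liver and red cells, stayed below the well-above-background call on all 3 arrays. The other pyruvate kinase gene, Pkm, stands outside the 33 names and had 8.05 untreated, 8.75 on the RA+D3V-labelled array and 8.96 on the A2-labelled array, a log2 difference of 0.70 and 0.91.

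At the end of the pathway, the gene for lactate export differed most after Aldoc. Slc16a3 (probe at chromosome 11, 120820030 to 120820089, mm9) encodes MCT4, the lactate exporter of strongly glycolytic cells, and had a log2 signal of 4.07 untreated, 6.54 on the RA+D3V-labelled array and 7.59 on the A2-labelled array. It was 5.55-fold and 11.48-fold higher, and a second probe that overlaps the first gave 2.44 and 3.51 on the log2 scale. Slc16a1, which encodes the widely expressed MCT1, stayed within 2-fold with -2.35, -2.17 and -1.84. Ldha, which turns pyruvate into lactate, had 8.53, 9.37 and 9.91 and was 1.79-fold and 2.61-fold higher. Its 2 dimmer probes gave 1.21 and 0.99 on the RA+D3V-labelled array and 2.37 and 2.17 on the A2-labelled array. Ldhb, the subunit typical of heart, stayed below the well-above-background call on all 3 arrays.

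Of the pyruvate dehydrogenase kinases, which restrain the oxidation of pyruvate in mitochondria, Pdk1 was the one past 2-fold, on the A2-labelled array. It had 0.63 untreated, 1.60 on the RA+D3V-labelled array and 2.38 on the A2-labelled array, a 1.96-fold and a 3.38-fold difference. Pdk2 had -1.55, -1.26 and -1.34 and Pdk3 had 2.23, 2.64 and 2.61, all within 2-fold. Pdk4 stayed below the well-above-background call on all 3 arrays.

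The count on the RA+D3V-labelled array rests on a limit that many genes lie close to. Slc2a6, Tpi1 and Pfkm were just past 2-fold there, with log2 differences of 1.05, 1.07 and 1.07. Pgk1, Pdk1, Hk2 and Slc2a3 were just short of it, with 0.97, 0.97, 0.96 and 0.94. On the A2-labelled array, Pgam1 (1.11) was the nearest above and Gpi1 (0.93) the nearest below. At a limit of 1.5-fold, 18 of 29 genes were higher on the A2-labelled array and 18 of 28 on the RA+D3V-labelled array, against 17.1% and 17.6% of all names at that limit.

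**Figure D2:**
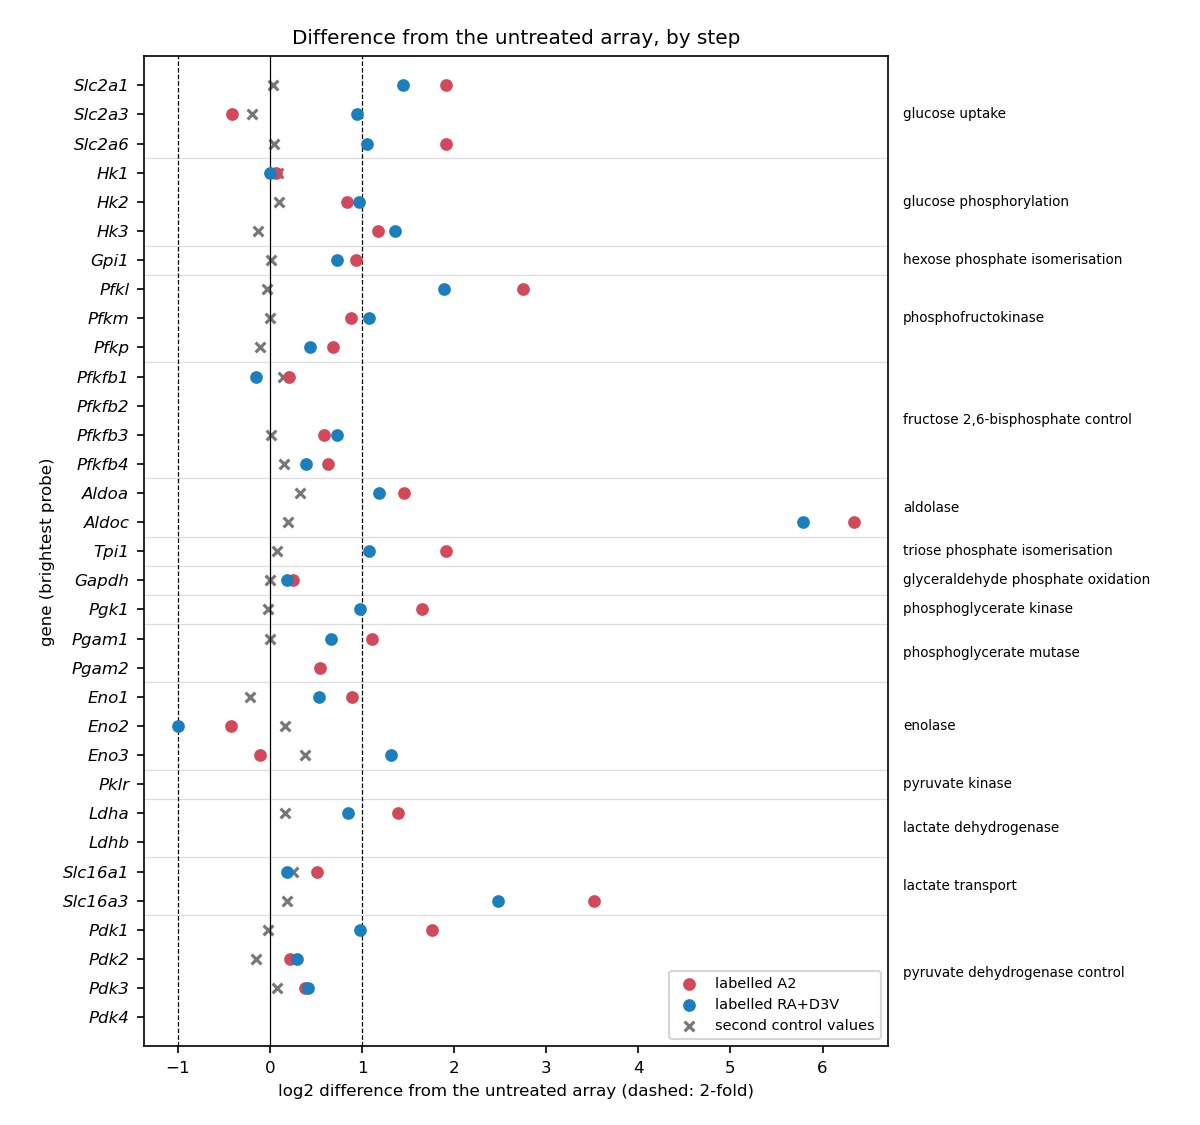
Log2 difference of each gene's brightest probe from the untreated array (rows by step) on the arrays labelled A2 (red) and RA+D3V (blue), 1 array each, with the second control values as crosses for the genes above background on all arrays and dashed lines at 2-fold; genes without a point were not measured in that comparison. The crosses stay between -0.22 and 0.38, while Aldoc reaches 5.79 and 6.34.

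Set against each other, the treated arrays were 2-fold apart in few of these genes, near the shares of all names. More of the genes lay higher on the A2-labelled array than lower. In this comparison, which does not use the untreated array, 1 of 28 genes was at least 2-fold higher on the A2-labelled array and 2 were at least 2-fold lower, against 3.77% and 4.04% of 17631 names. Slc16a3 was the higher one, at 2.07-fold. Eno3 was 2.67-fold and Slc2a3 2.56-fold lower on the A2-labelled array. The median was 0.30 and 20 of 28 genes were higher on the A2-labelled array, against a median of -0.02 and 47.9% of all names. The next largest were Slc2a6 (0.87), Pfkl (0.85), Tpi1 (0.84), Pdk1 (0.79) and Pgk1 (0.67). The 8 on the other side were, beside Eno3 and Slc2a3, Pfkm (-0.20), Hk3 (-0.18), Pfkfb3 (-0.14), Hk2 (-0.13), Pdk2 (-0.08) and Pdk3 (-0.03). Of the 8 genes at least 2-fold above untreated on both arrays, 7 were further above it on the A2-labelled array, and Hk3 was the exception. The same share among all names past 2-fold on both arrays was not computed, so this count cannot be set apart from them.

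**Figure D3:**
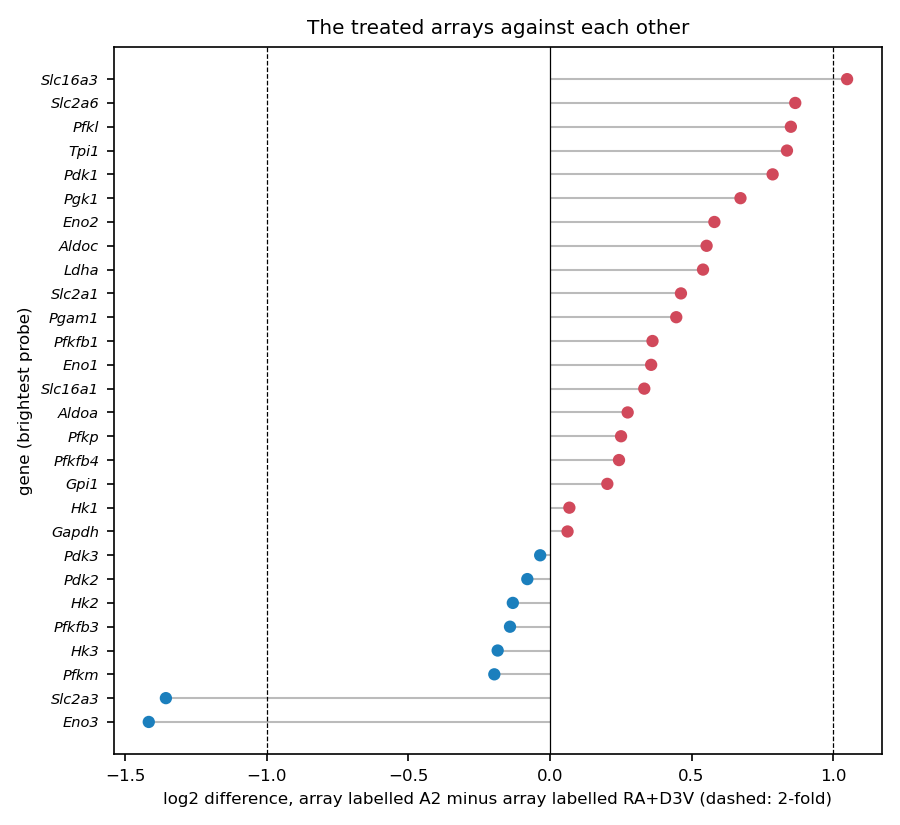
Log2 difference between the A2-labelled array and the RA+D3V-labelled array for the 28 genes measured on both (1 array each), in order, with dashed lines at 2-fold; red points are higher on the A2-labelled array and blue points on the other. Slc16a3 lies past the upper line at 1.05, and Eno3 (-1.42) and Slc2a3 (-1.36) past the lower one.

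For genes with several probes, the brighter probe often gave the smaller difference. Among 11 genes with more than 1 probe above background on all arrays, the probe brightest on the untreated array had the smallest difference in 8 on each treated array. The untreated signal picks the probe and is also subtracted in the difference, so its error favours this pattern in both counts. No share over other genes with several probes was computed. Hk1, Ldha, Gapdh and Gpi1 are among the 8 on the A2-labelled array, while Pfkp, Pfkfb3 and Slc16a3 went the other way there. On the RA+D3V-labelled array the exceptions were Pfkp, Slc2a6 and Slc16a3, and the Slc16a3 probes differed by little on either. The direction agreed between probes for all 11 genes except Hk1 on the RA+D3V-labelled array, where the brightest probe was at -0.004, and Pfkp. The dimmer Pfkp probe was at -0.40 and -0.10, below the untreated array on both treated ones. With the dimmest measured probe of each gene, a choice made after these values were seen and with no share over all names computed, 15 genes passed 2-fold upward on the A2-labelled array and 13 on the RA+D3V-labelled array. Overlapping probes share sequence and are not independent readings.

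**Figure D4:**
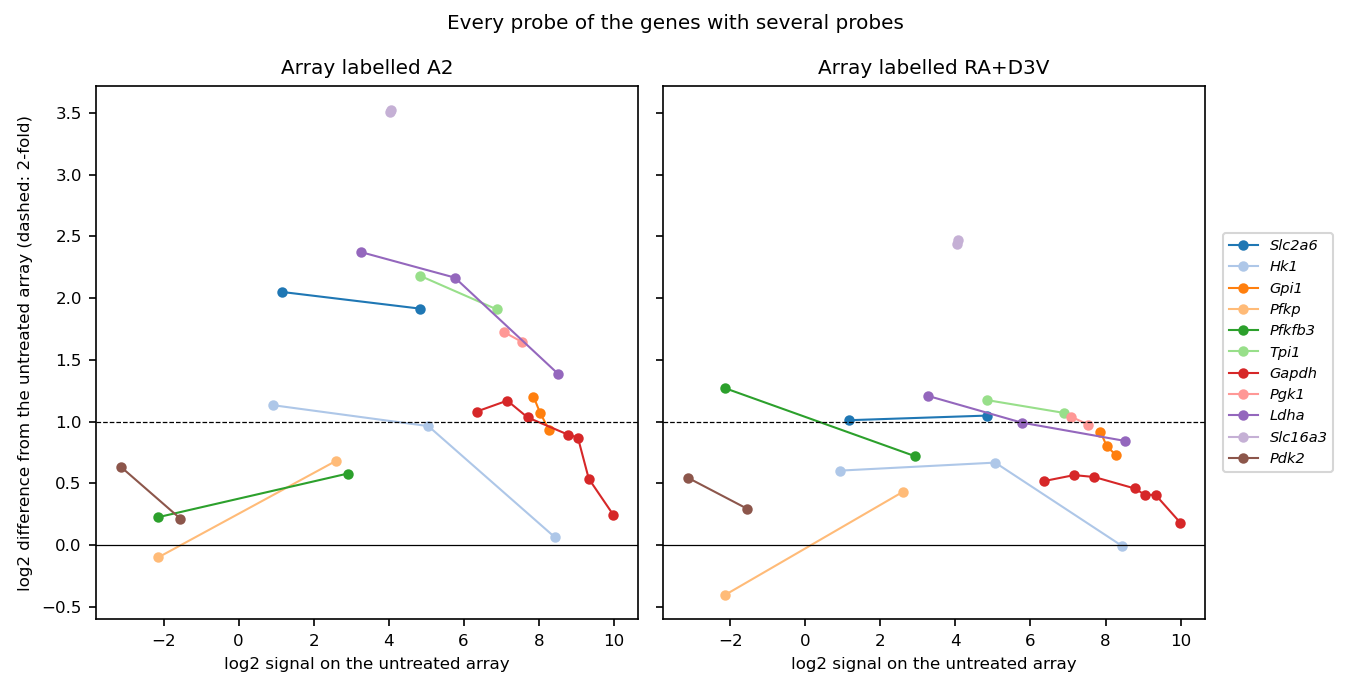
Each probe of the 11 genes with several probes above background on all arrays, by its log2 signal on the untreated array and its log2 difference from that array, on the A2-labelled array (left) and the RA+D3V-labelled array (right); lines join probes of a gene, 1 array per condition, dashed line at 2-fold. The 7 Gapdh probes run from 1.17 down to 0.25 on the left.

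Neighbouring pathways were read the same way, on lists that were chosen with earlier results known. The shares of all names to set beside them are 7.92% and 7.81% at least 2-fold higher and 6.46% and 5.04% lower (A2 first). Of the glycogen genes, 9 of 21 measured were at least 2-fold higher on the A2-labelled array and 4 of 21 on the RA+D3V-labelled array, with 1 at least 2-fold lower on each and medians of 0.56 and 0.22. The liver glycogen phosphorylase Pygl had the largest difference on both (2.48 and 2.08 on the log2 scale, A2 first). The phosphoglucomutase Pgm1 (2.39 and 1.41) and the glycogen synthase Gys1 (1.80 and 1.75) also passed 2-fold on both. The 1 lower gene, the phosphatase subunit Ppp1r3b (-1.23 and -1.21), is read by a probe with 13 alternating G and T bases. No probe of the 33 glycolysis genes has such a run of 8 or more. In the pentose phosphate pathway, which branches off at glucose 6-phosphate, 1 of 13 genes was at least 2-fold higher (H6pd, 1.09) and 1 lower (Prps1, -1.24) on the A2-labelled array, and 0 of 13 either way on the other, with medians of 0.40 and 0.24.

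Genes of pyruvate oxidation lay mostly below their untreated level or close to it. Of 8 measured genes for pyruvate dehydrogenase subunits and its phosphatases, 7 lay below their untreated level on each treated array, though none by 2-fold. Their medians were -0.42 and -0.41 (A2 first), and 52.3% and 51.8% of all names lay below untreated. The tricarboxylic acid cycle genes had medians of -0.11 on the A2-labelled array and 0.01 on the RA+D3V-labelled array, with 1 of 16 and 0 of 16 at least 2-fold lower and none higher by 2-fold. The lower one was the isocitrate dehydrogenase subunit Idh3a, at -1.0004.

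Among other isozymes of glycolysis, 8 of 16 genes on the design were measured against untreated and none was 2-fold higher. Hkdc1, a hexokinase homologue, was lower (-0.75 on the A2-labelled array and -1.40 on the RA+D3V-labelled array). Of 10 other measured glucose, lactate and pyruvate transporters, the fructose transporter Slc2a5 was lower on both (-1.22 and -1.12) and the lactate transporter Slc16a8 higher on the RA+D3V-labelled array (1.45). Basigin, Bsg, the chaperone of MCT1 and MCT4, differed by 0.87 and 0.48.

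Hypoxia-inducible genes that are not part of glycolysis were mostly higher on both arrays too, with medians of 1.77 and 1.12 (A2 first). On each array 11 of 16 were at least 2-fold higher, against 7.92% and 7.81% of all names, and 1 was lower, against 6.46% and 5.04%. The higher ones included the mitochondrial protein gene Mgarp (7.61 and 6.64), the collagen prolyl hydroxylase P4ha2 (4.84 and 3.88) and Ankrd37 (4.71 and 4.43). The untreated Mgarp signal was -3.80, near the lowest signal above background on that array (-4.27), so the size of its differences rests on a dim value. The 1 lower gene was the carbonic anhydrase Car12 (-3.04 and -1.14), and Car9, another hypoxia marker, differed by 0.04 and 0.14.

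**Figure D5:**
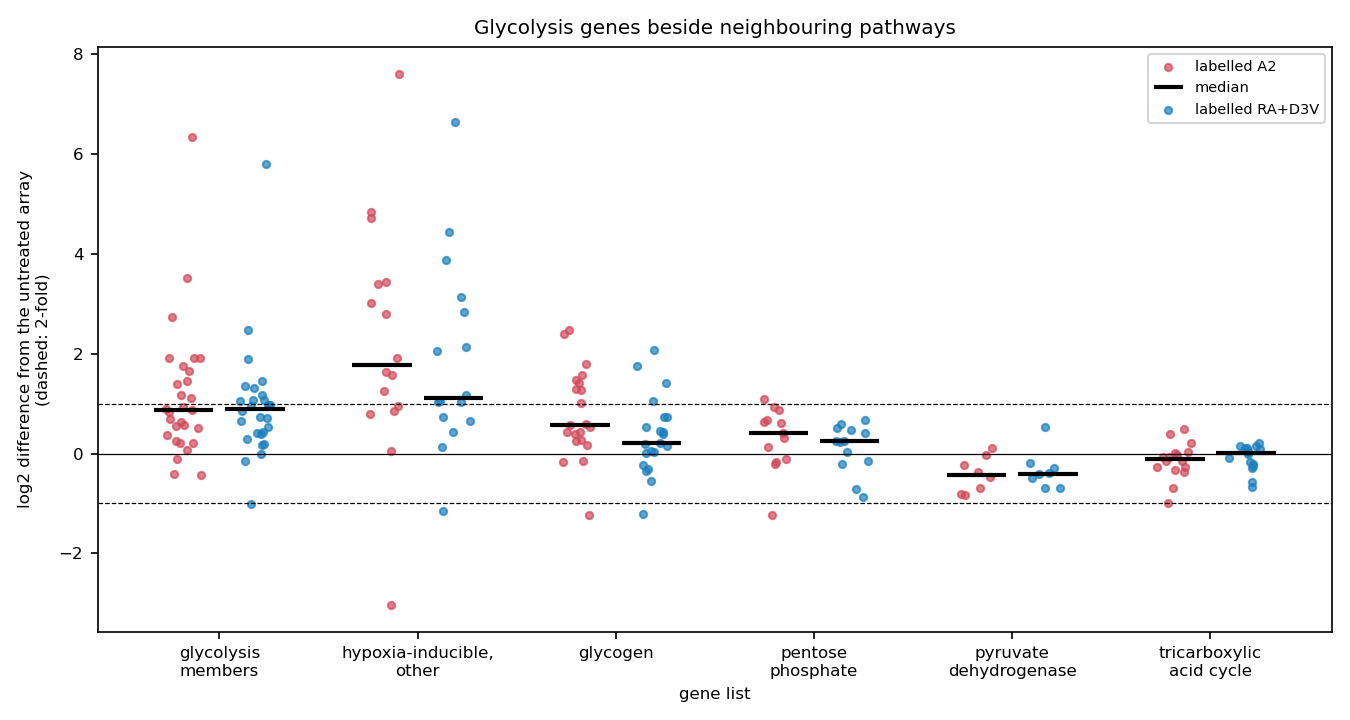
Log2 difference from the untreated array of every measured gene of the 33 glycolysis genes and of 5 other lists, on the arrays labelled A2 (red) and RA+D3V (blue), 1 array each; points are genes (spread sideways at random), black bars medians and dashed lines 2-fold. Medians of the glycolysis genes lie at 0.88 and 0.89 and those of the tricarboxylic acid cycle at -0.11 and 0.01.

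Markers of the leukaemic and of other cells differed between the arrays as well. In bulk RNA, fewer cells of a type and less RNA per cell cannot be told apart. The summed signal of the 12 myeloid progenitor and leukaemia markers, in units of the array's 75th percentile, was 1073 on the untreated array, 702 on the RA+D3V-labelled array and 481 on the A2-labelled array. The granule enzyme Mpo, the brightest of them on the untreated array at 9.39, made the largest part of the untreated sum. It differed by -1.57 and -2.22 on the log2 scale (RA+D3V first), and the receptor Flt3 by -1.80 and -2.28. Other markers were higher on both arrays: Itgam (2.31 and 2.37), Kit (0.42 and 1.70), Hoxa9 (0.38 and 1.19) and Csf1r (0.59 and 0.69). Cd34 differed by 0.67 and -1.30. Of 11 measured markers, 7 and 4 lay above their untreated level, with medians of 0.38 and -0.17. The summed signal of 10 erythroid markers was 9.79 on the untreated array, 6.90 on the RA+D3V-labelled array and 6.13 on the A2-labelled array, with 7, 6 and 8 of them above background. Of 10 megakaryocyte and platelet markers the sums were 1.25, 25.2 and 19.3, with 4, 5 and 5 above background; Pf4 and Ppbp made most of it on the treated arrays, and Itga2b, Gp1ba, Gp1bb, Gp9 and Gp6 were above background on none. Of 10 T and NK cell markers the sums were 17.7, 11.9 and 16.9, with 7, 4 and 5 above background and Klrb1c, Ncr1 and Cd8a on none. Nkg7 and Cd3e made most of these sums. Of the measured T and NK markers, 3 of 5 were at least 2-fold lower on the A2-labelled array and 2 of 4 on the RA+D3V-labelled array. The shares of all names were 6.46% and 5.04%, and the median log2 differences of these markers were -1.81 and -1.06. B cell markers summed to 19.2, 12.9 and 18.9 (5 of 8 above background on each array, Pax5, Ebf1 and Igll1 on none) and stromal and endothelial ones to 8.98, 13.7 and 11.6 (5, 5 and 6 of 10, Col3a1, Cxcl12 and Cdh5 on none). The part of these differences in the glycolysis values was not tested.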

How the data were processed

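RNA of 3 samples was measured on 1 single-colour array each. Agilent Feature Extraction 11.5.1.1 produced the spot intensity in the deposited scanner files, per the file headers, corrected for background and spatial trend within the array and not scaled between arrays, with probe positions in mm9; exon and UTR annotation of that build was not used here. The flags for spots above background, saturated or uneven are other deposited values of 0 or 1, set by that software per the file headers. The value table deposited by the authors gives linear intensity, and its columns share their quartiles; how it was made is not given in the sources used here.

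Control spots and 24 uneven probes were left out, and 55657 probes were kept. Processed signal was divided by its 75th percentile over the array's spots other than controls and taken to log2, with spots of a probe averaged. Glycolysis genes kept the name in the files. A RefSeq table (GRCm38.p6) named the other probes, 27646 through the accession, 3400 through the symbol and 321 through a synonym, or they kept the file's name (24290). Each gene was read on its brightest probe, by mean log2 over the arrays. Differences of at least 2-fold between probes above background on both arrays were counted, with no test. The steps were tested on simulated data. Tools were Python 3.11.15 and R 4.3.3 with limma 3.58.1.

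The 33 genes, the other lists and the rule for named genes (all 33; of other lists the largest differences past 2-fold; and Pkm, Hif1a, Myc, Txnip and the cell type markers whatever their value) were chosen with earlier results of these data known. Bsg, Car9, Arnt2, Fbp1, Fbp2, Pck1 and G6pc fall outside the rule and were chosen after their values were seen.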

Additional observations from a re-analysis of the deposited data

How the results depend on the processing

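No paired analysis was possible because each group has 1 array. Every gene called on the A2-labelled array stayed at least 2-fold higher under normexp (offset 50), under scaling to the median or the 75th percentile of probes above background on all arrays, quantile normalization, the median over probes, no filter on dim probes, brighter probes alone, leaving out probes with G and T runs, and the value table's control. Over all alternatives but the 1.5-fold limit and the value table with its own labels, the count of higher genes ran from 12 to 15 on the A2-labelled array and from 8 to 14 on the RA+D3V-labelled array, and the medians from 0.69 to 1.08 and from 0.72 to 0.97. At 1.5-fold, 18 genes were higher on the RA+D3V-labelled array (17.6% of all names) and 6 of 28 on the A2-labelled against the RA+D3V-labelled array (8.88% of all names). Eno2 drops out of the count of lower genes on the RA+D3V-labelled array, leaving 0, under normexp, both scalings to detected probes and brighter probes alone. Without a filter, Pfkfb2 makes 1 lower gene on the A2-labelled array, and the median of all names lies at 0.19 on the RA+D3V-labelled array and -0.18 between the treated arrays. Between the treated arrays, the number higher on the A2-labelled array was 0 under both scalings to detected probes, 2 with the median over probes and 4 with the dimmest probe. No shares of all names are given beside these counts.

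With the value table and its own labels, which exchange the treated arrays, 1 gene was lower for A2 and 0 for RA plus D3V against untreated. Between the treated conditions 2 were then higher and 1 lower for A2, with a median of -0.29. The shares of all names under these labels are not given here. The 4 called values that reversed were Eno3 for RA plus D3V against untreated (-0.52) and, for A2 against RA plus D3V, Eno3 (1.53), Slc2a3 (1.40) and Slc16a3 (-1.09). Of the 12 genes called on the A2-labelled array, 9 stayed 2-fold higher under these labels, and the same retention among all names was not computed. The labels decide these directions. Signal over background limits Pfkfb2, Pgam2, Pklr, Ldhb and Pdk4.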

Other observations

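Regulators of the hypoxia response were above their untreated level in 9 of 9 measured genes on the A2-labelled array, 4 of them by at least 2-fold. On the RA+D3V-labelled array 7 of 9 were, 2 of them by at least 2-fold. Of all names, 47.7% and 48.2% lay above untreated, and 7.92% and 7.81% by at least 2-fold (A2 first). Among the regulators, the oxygen-sensing hydroxylase gene Egln3 had the largest difference on both, at 3.10 and 2.95 on the log2 scale. Hif1a, the inducible subunit of hypoxia-inducible factor 1, had a log2 signal of 2.41 untreated, 2.30 on the RA+D3V-labelled array and 4.28 on the A2-labelled array, a difference of -0.11 and 1.87. Hif3a was at -3.07, -0.63 and -1.25 and Egln1 at -2.19, -1.80 and -0.64. Arnt2 was well above background on the A2-labelled array alone.

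Myc, an activator of many glycolysis genes, had 2.95 untreated, 2.31 on the RA+D3V-labelled array and 1.36 on the A2-labelled array. Txnip, which restrains glucose uptake and is induced by glucose itself, had 1.73, 3.15 and 3.11, a log2 difference of 1.42 and 1.38, and its relative Arrdc4 differed by 0.98 and 1.87. In gluconeogenesis 5 of 8 genes were measured, and the mitochondrial Pck2 was the 1 gene past 2-fold, lower at -1.44 on the RA+D3V-labelled array and -1.496 on the A2-labelled array. Of the gluconeogenic enzymes, Fbp1 was at 0.77, 0.13 and 0.97, and Pck1, G6pc and Fbp2 were not well above background on any array.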
